A study of Danio rerio with 6 samples.

Results

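GFP-positive cells sorted from Tg(Fli1:EGFP) zebrafish embryos at 24 hours post fertilisation (hpf) were compared with the cells sorted from the same line at 18 hpf. The comparison uses 2 of the 6 arrays of the study, chosen by their titles, and all 14067 zebrafish probes printed on each. No condition of the study had a replicate array, so each difference below is between 2 hybridizations, carries no test, and mixes the stage with the error of single arrays. The remaining arrays held Fli1 cells of 28 hpf, cells sorted for the Flk reporter at 18 hpf by title (the series design writes the line as Tg(Flk:GRCFP), and the sample description gives 24 hpf), and RNA of whole embryos at 24 and 18 hpf, and they are given where they set a level in context. Embryos were untreated and raised at 28 °C before dissociation. The RNA went through 2 rounds of amplification and carried Cy3. The labels do not say how many embryos were pooled for an array, and no label gives a strain background other than the reporter.

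In the Fli1 reporter line, EGFP is under the control of fli1, which encodes an ETS factor, and labels endothelium, blood cells with their precursors and some neural crest. A sort on GFP therefore collects a mixture of lineages, and its composition can shift with stage. Over the hours compared here, angioblasts have gathered into the axial vessels, the primitive red cells of the intermediate cell mass enter circulation while filling with embryonic hemoglobin, and early macrophages and neutrophils arise from the anterior lateral mesoderm. In bulk RNA, fewer cells of a type and less RNA per cell cannot be told apart.

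The 2 arrays differed in brightness. On the array of 24 hpf, 32.5% of 13999 unflagged probes exceeded the 95th percentile of the Arabidopsis control spots (the limit used here for a measured spot), against 24.7% at 18 hpf, and the brightest 1% of probes began at a background-subtracted intensity of 10112 at 24 hpf and 3039 at 18 hpf. Signals below are intensities of scan setting 55 after background correction and quantile normalization over the 6 arrays, in the same arbitrary unit for all arrays, and levels of different probes cannot be set against each other. A gene stands for its probe with the highest mean signal. Under that normalization the median log2 difference (24 minus 18 hpf) was 0.03 over the 3972 genes and unnamed probes above the limit on at least 1 of the 2 arrays, and -0.14 over the 2489 above it on both, where the middle 50% ran from -0.46 to 0.24. The median over the 3972 was 0.17 with each array scaled to its 75th percentile and 0.25 in the authors' scaled values, and in these scalings the difference grew with brightness, to 0.83 and 0.999 in the brightest of 5 equal groups of the genes measured on both arrays, while it stayed between -0.22 and -0.06 in each group after quantile normalization. Brighter genes therefore look higher at 24 hpf wherever the arrays are aligned by a single number, and the part of the array's brightness in any one difference was not tested.

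**Figure D1:**
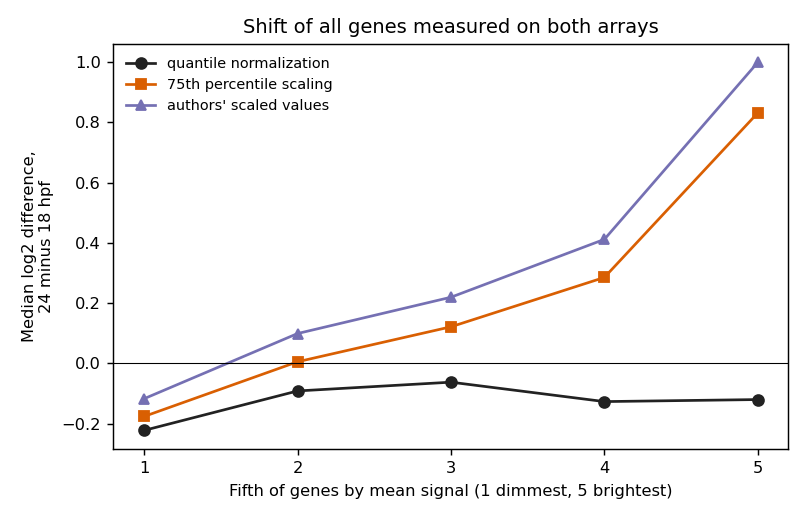
Median log2 difference (24 minus 18 hpf, vertical axis) of the 2489 genes and unnamed probes measured on both Fli1 arrays, in 5 groups from dimmest to brightest (horizontal axis), under 3 ways of aligning the arrays. The line of quantile normalization stays below 0, and the other lines climb to 0.83 and 0.999 in the brightest group.

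A call below means a difference of at least 2-fold whose brighter spot exceeded its limit. List members given as 2-fold higher or lower are calls, and for a 1-sided call the bound on the fold can be smaller. Calls were made for 299 of the 3972 genes and unnamed probes (7.53%) in the direction of higher at 24 hpf and for 225 (5.66%) in the direction of lower, 156 and 128 of them named. Higher calls were 57.1% of all calls, against 81.5% under 75th percentile scaling (450 higher and 102 lower) and 84.4% in the scaled values of the authors (577 and 107). Only 95 of the higher set (3.82% of 2489) and 119 of the lower set (4.78%) were above the limit on both arrays. The other 204 higher and 106 lower ones were measured at 24 hpf alone or at 18 hpf alone. Spots that hold no probe show how much weight such 1-sided signals bear. Of 544 empty spots, 9 met the same criterion as higher and 12 as lower, with signals of 340 to 9567 at 24 hpf and 437 to 2543 at 18 hpf, and 0 of the 544 were above the limit on both arrays. The 1-sided share was 1.92% of the 10633 genes and unnamed probes against 1.65% of the empty spots for higher, and 0.997% against 2.21% for lower. Of the 1-sided genes, 176 of the 204 higher and 68 of the 106 lower ones were above the limit on at least 1 of the remaining 4 arrays, against 1 of the 9 and 1 of the 12 empty spots. On each of these 4 arrays 32.9% to 42.6% of all unflagged probes were above the limit. The share of all genes above it on at least 1 of them was not counted. Empty spots hold no probe, so these counts cannot set the 1-sided calls apart from other genes.

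**Figure D2:**
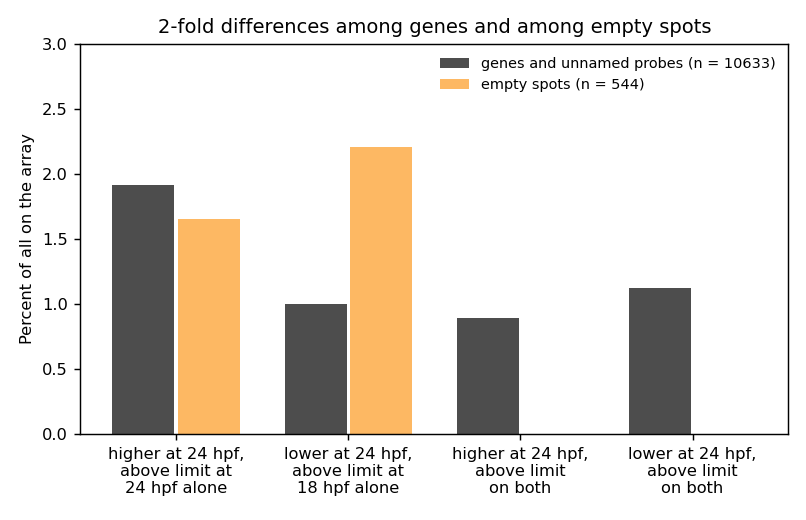
Percent of all genes and unnamed probes (dark bars) and of all empty spots (light bars) with a 2-fold difference between the Fli1 arrays, split by direction and by whether the spot was above the limit on 1 array or on both. Empty spots reach 1.65% and 2.21% in the 1-sided classes and 0 where both arrays were above the limit.

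Further scales of error came from the controls and from repeated probes. The log2 difference over the 173 Arabidopsis spots had an SD of 0.35 and ran from -1.25 to 0.96. Over 273 genes with several probes above the limit on both arrays, the probes of a gene differed with an SD of 0.49. Of 52 called genes with another probe above the limit, the other probes had the same sign for 38 (73.1%) and reached 2-fold the same way for 23.1%. Under all 3 scalings together, 224 of the 299 higher calls and 99 of the 225 lower calls reached 2-fold. The higher calls kept their sign in all cases, while 221 of the lower ones did so under 75th percentile scaling and 215 in the authors' scaled values. Both of these scalings move brighter genes upward. Such counts therefore favour the higher calls and cannot rank them against the lower ones.

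**Figure D3:**
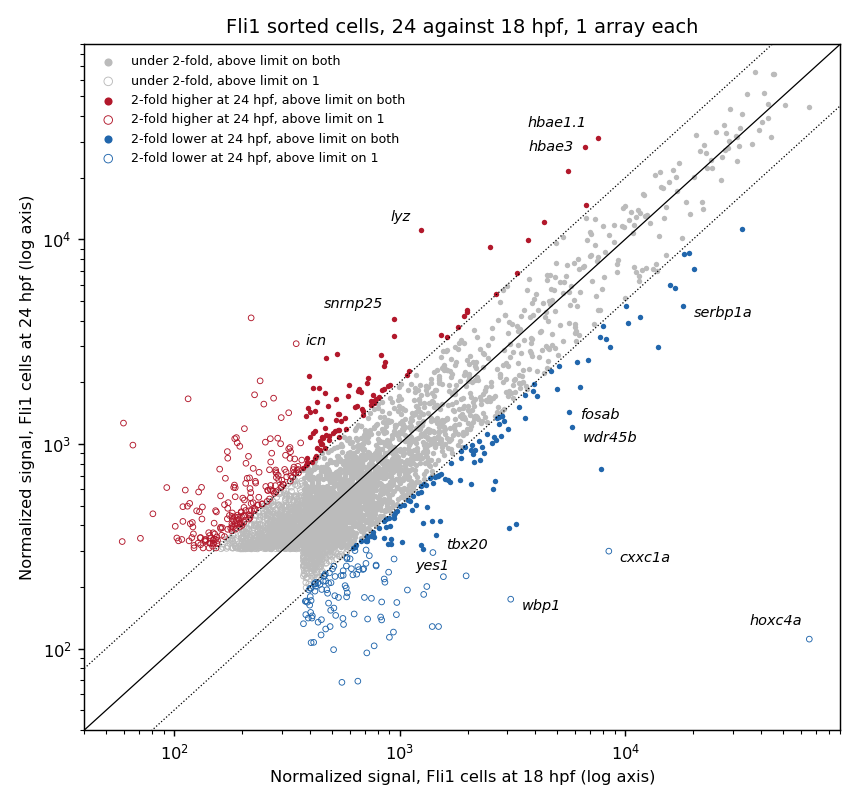
Normalized signal of the 3972 genes and unnamed probes in Fli1 cells at 24 hpf (vertical, log axis) against 18 hpf (horizontal, log axis), with filled points above the limit on both arrays, open points above it on 1, and dotted lines at 2-fold. The embryonic globins hbae1.1 and hbae3 and the gene lyz lie far above the diagonal at high signal, and hoxc4a lies alone at the lower right.

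The identity of the sorted cells was checked against their defining genes. The probes of fli1 itself were below the limit on the arrays of 24 and 18 hpf, both of 2, and the endothelial receptor genes tie1, flt1 and flt4 and the crest regulators sox10 and foxd3 were below it on both arrays as well. The gene kdrl, which encodes a receptor of vascular endothelial growth factor (VEGF), was above the limit through 1 of its 4 probes, with 434 at 24 hpf and 526 at 18 hpf, against 271 and 281 in whole embryos of 24 and 18 hpf. The erythroid regulator gata1a had 439 at 24 hpf and 378 at 18 hpf, against 279 and 282 in whole embryos. Its 18 hpf value in Fli1 cells lay at the edge of the limit, where the lowest measured signal was 375. The whole-embryo values of kdrl and gata1a also lay near the limit, since atf3 with 272 was below it at 18 hpf. For gata1a the values therefore cannot show an enrichment. The gene gata2a was below the limit in Fli1 cells (105 at 24 hpf and 152 at 18 hpf) and in whole embryos (225 and 215).

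Embryonic globins were about 4-fold higher at 24 hpf. The alpha-type embryonic globin gene hbae3 had a signal of 28089 at 24 hpf and 6605 at 18 hpf, which is 4.25-fold, and its second probe gave a log2 difference of 2.09, as the first did. The neighbouring alpha gene hbae1.1 had 31239 at 24 hpf and 7545 at 18 hpf, 4.14-fold. Other processing changed these sizes. The log2 difference of hbae3 was 3.59 under 75th percentile scaling, 3.75 in the authors' scaled values and 1.23 at scan setting 65. That of hbae1.1 was 3.61, 3.78 and 0.92. The beta-type gene hbbe1 was saturated at 24 hpf (43104, against 29031 at 18 hpf, so at least 1.48-fold). At the weaker scan setting 45, where it was not saturated on either array, hbbe1 had 37310 at 24 hpf and 9316 at 18 hpf, a 4.005-fold difference beside 4.37-fold for hbae1.1 and 4.38-fold for hbae3. Embryonic globin genes are near copies of each other, and a probe may read several of them. At 28 hpf the Fli1 array had 41150 for hbae3 and 44204 for hbae1.1, and the Flk cells had 2349 and 2903.

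The other globins moved less. The adult-type gene hbaa1 had 2300 at 24 hpf and 1468 at 18 hpf (1.57-fold), and hbba1 and hbba2 were above the limit at 24 hpf alone, with 595 and 323. Of 9 globin genes on the array, 6 were above the limit on at least 1 array. Of the 6, 2 were 2-fold higher and none was 2-fold lower, against 7.53% and 5.66% of all genes and unnamed probes. The median log2 difference of the globins was 0.57 over all 9 and 1.35 over the 4 measured on both arrays.

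Among the enzymes that make heme, the iron-holding group of hemoglobin, alas2 and fech were called 2-fold higher at 24 hpf after quantile normalization. The others given here did not reach 2-fold there. The first enzyme of the pathway in red cells, alas2, had 3389 at 24 hpf and 1524 at 18 hpf, 2.22-fold, and 8844 at 28 hpf. The decarboxylase gene urod had 5643 at 24 hpf and 2864 at 18 hpf (1.97-fold), with 2004 at 28 hpf. The second enzyme, alad, had 1756 at 24 hpf and 1317 at 18 hpf, and the third, hmbsa, had 431 and 453. The gene fech, whose enzyme inserts the iron, was above the limit at 24 hpf alone (407, against 187). Its fold is therefore a lower bound, at least 1.09-fold. After quantile normalization the differences thus ran from 2.22-fold at the first step to none beyond the control spread at hmbsa. Under 75th percentile scaling and in the authors' scaled values the log2 differences were 2.11 and 2.30 for urod. They were 1.99 and 2.22 for alas2, 0.99 and 1.13 for alad, 0.93 and 1.02 for fech, and -0.01 and -0.03 for hmbsa. The alternative first enzyme alas1 had 827 at 24 hpf and 546 at 18 hpf, and 4 other probes of it averaged a log2 difference of 0.37.

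Iron storage and heme breakdown genes went the same way, and an iron importer went the other. The ferritin gene fthl27 had 9643 at 24 hpf and 4943 at 18 hpf (1.95-fold), but 1918 at 28 hpf. Its 6 other probes averaged 1.54 on the log2 scale. The ferritin gene fth1a had 12730 at 24 hpf and 6699 at 18 hpf (1.90-fold), with 10838 at 28 hpf. A second probe of fth1a gave 1.18. In whole embryos the log2 differences were -0.36 for fthl27 and -0.69 for fth1a. The biliverdin reductase gene blvrb, which acts in heme breakdown and is abundant in red cells, had 1075 at 24 hpf and was below the limit at 18 hpf (at least 2.87-fold), and it was above the limit again at 28 hpf with 1411. The iron importer gene slc11a2, also called DMT1, had 638 at 24 hpf and 2079 at 18 hpf, 3.26-fold lower, while its second probe gave 0.21 and the Fli1 array of 28 hpf had 2648. Of 13 heme and iron genes on the array, 12 were above the limit. Of the 12, 3 were called higher and 1 lower, against 7.53% and 5.66% of all genes and unnamed probes. Among the 3, fech and blvrb were 1-sided. The list median was 0.71 over all 13 and 0.61 over the 9 measured on both arrays, against -0.14 for all genes measured on both.

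Regulators of the red cell lineage measured on both arrays stayed under 2-fold by their main probes after quantile normalization. The zinc finger gene drl, which marks lateral mesoderm and blood, had 3236 at 24 hpf and 3560 at 18 hpf. Its log2 difference was -0.14, against 0.89 under 75th percentile scaling and 1.07 in the authors' scaled values. The regulator gata1a stood at 1.16-fold. The gene klf17 was above the limit at 24 hpf alone with 616, at least 1.64-fold. The hematopoietic helix-loop-helix gene tal1 had 1152 at 24 hpf and 1502 at 18 hpf by its main probe, with a log2 difference of -0.38, while its second probe gave 0.99 and the main probe gave 0.20 and 0.24 under the other scalings. Its partner lmo2 had 638 at 24 hpf and 1270 at 18 hpf, 1.99-fold lower, and -0.28 by a second probe. The carbonic anhydrase gene cahz (614 at 24 hpf) and the peroxiredoxin gene prdx2 (657), both abundant in red cells, were above the limit at 24 hpf alone, at least 1.64-fold and 1.75-fold. Of 14 genes of the red cell membrane and its regulators on the array, 10 were above the limit. Of the 10, 3 were called higher and none lower, against 7.53% and 5.66% of all genes and unnamed probes. The 3 were cahz, prdx2 and tmod4, each above the limit at 24 hpf alone. For tmod4, with 364 at 24 hpf, the lowest measured 18 hpf signal of 375 left no lower bound on the fold. The list median was 0.11 over the 10 and -0.25 over the 5 measured on both arrays.

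The gene with the largest fold upward among named genes measured on both arrays was lyz, the lysozyme of macrophages and neutrophils. It had 11135 at 24 hpf and 1248 at 18 hpf, 8.92-fold, and the Fli1 cells of 28 hpf had 13341. Whole embryos had 2952 at 24 hpf, with 18 hpf below the limit (at least 10.7-fold). The fish leukocyte gene nccrp1, a receptor first described on cytotoxic cells, had 1526 at 24 hpf and 483 at 18 hpf (3.16-fold), and 4125 at 28 hpf. Unlike for lyz, whole embryos had more nccrp1 signal than Fli1 cells at both stages, with 3030 at 24 hpf and 1193 at 18 hpf (2.54-fold).

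By their main probes after quantile normalization, the other white cell genes above the limit were under 2-fold and pointed in both directions. The gene mfap4.1 had 2201 at 24 hpf and 2033 at 18 hpf, but its second probe gave 1.40 on the log2 scale. The myeloid master regulator spi1b had 427 at 24 hpf and 423 at 18 hpf. The neutrophil peroxidase gene mpx had 497 at 24 hpf and 522 at 18 hpf, and the actin bundler gene lcp1 had 540 and 988, in the other direction from lyz. The actin regulators coro1a (1015 at 24 hpf and 600 at 18 hpf) and arpc1b (875 and 532) were 1.69-fold and 1.65-fold higher. In the authors' scaled values coro1a gave 1.01 on the log2 scale. The stem cell regulator runx1 had 834 at 24 hpf and 1077 at 18 hpf, and myb, a marker of blood stem cells, was above the limit at 18 hpf and not at 24 hpf. Of 22 leukocyte and progenitor genes on the array, 17 were above the limit. Among the 17, 2 were 2-fold higher, lyz and nccrp1, and none was 2-fold lower. Over all genes and unnamed probes 7.53% were higher and 5.66% lower. The median was -0.07 over the 22, and 0.06 over the 12 measured on both.

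The endothelial genes above the limit showed no common direction. The angiopoietin receptor gene tek had 762 at 24 hpf and 391 at 18 hpf (1.95-fold), and 920 at 28 hpf. The Src family kinase gene yes1 had 308 at 24 hpf and 1264 at 18 hpf, 4.11-fold lower. Its 24 hpf signal lay at the edge of the limit, where the lowest measured signal was 307. It had 434 in Fli1 cells at 28 hpf and 222 to 371 on the remaining arrays, so the 18 hpf array held the high value. The endodermal and vascular gene sox17 had 315 at 24 hpf and 399 at 18 hpf. Of 20 genes of endothelium and angioblasts on the array, 7 were above the limit, beside 3972 of all 10633 genes and unnamed probes. Among the 7, none was 2-fold higher and 1 was 2-fold lower, against 7.53% and 5.66% of all genes and unnamed probes. The median over the 20 was -0.08, and over the 6 measured on both it was -0.36, with 0.01 over the 7 in the authors' scaled values.

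Artery and vein genes included differences in both directions. The arterial ligand gene efnb2a had 1042 at 24 hpf and 486 at 18 hpf, 2.14-fold, but only 227, below the limit, at 28 hpf, and its second probe was below the limit on both arrays. Its venous receptor gene ephb4a had 845 at 24 hpf and was below the limit at 18 hpf (at least 2.25-fold), with 582 at 28 hpf. The T-box gene tbx20, expressed in heart and in the dorsal aorta, had 361 at 24 hpf and 1445 at 18 hpf, 4.01-fold lower. The 24 hpf array held the lowest tbx20 value of the 6, since the others ran from 846 to 3229. The arterial Notch receptor gene notch1b had 879 at 24 hpf and 968 at 18 hpf. The venous genes dab2 (341 and 468) and nrp2b (653 and 1003) were lower by less than 2-fold. In all 1 of 5 artery genes above the limit was 2-fold higher and 1 was lower, from 14 on the array. Of 3 vein and lymphatic genes 1 was higher, from 6 on the array. Over all genes and unnamed probes 7.53% were higher and 5.66% lower.

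By their main probes, members of the VEGF and Notch pathways stayed within 2-fold. The ligand gene vegfaa had 414 at 24 hpf and 378 at 18 hpf, and its second probe also gave 0.13 on the log2 scale. The Notch target genes her6 (1159 at 24 hpf and 845 at 18 hpf) and her9 (765 and 644) were 1.37-fold and 1.19-fold higher, and the Notch ligand gene jag1b had 477 and 785, 1.65-fold lower. The Notch receptor gene notch2 had 357 at 24 hpf and 468 at 18 hpf, while its second probe gave -1.59 on the log2 scale, past 2-fold lower. Of 23 such genes on the array 9 were above the limit, with a median of 0.05 over the 23. Of the 9, 0 reached 2-fold in either direction, against 13.2% of all genes and unnamed probes.

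**Figure D4:**
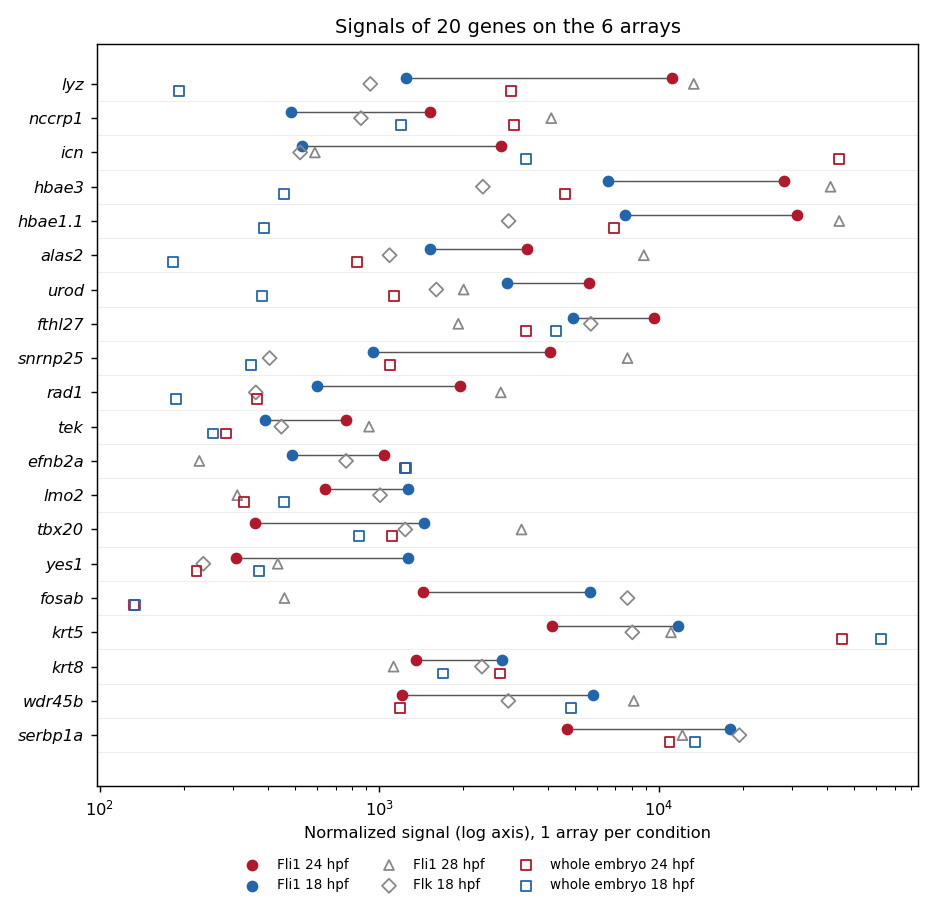
Normalized signals (log axis) of 20 genes on the 6 arrays, with filled circles joined for Fli1 cells at 24 and 18 hpf and open symbols for the other arrays. For lyz, hbae3, hbae1.1 and alas2 the 24 hpf value lies between those of 18 and 28 hpf, while for tbx20 and serbp1a the 24 hpf value is the lowest of the 6.

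Neural crest and pharyngeal arch genes, the third lineage under the reporter, were mostly level. The crest marker crestin had 589 at 24 hpf and 504 at 18 hpf, and the pigment cell regulator mitfa had 555 and 556. The mesenchymal gene twist3 had 922 at 24 hpf and 805 at 18 hpf. The gene hand2, a regulator of heart and arch mesenchyme, was above the limit at 24 hpf alone with 777 (at least 2.07-fold). Of 34 genes 14 were above the limit. Calls were made for hand2 and tfap2c, both higher and 1-sided, against 7.53% of all genes and unnamed probes. For tfap2c, with 349 at 24 hpf, the lowest measured 18 hpf signal of 375 left no lower bound on the fold. Of 14 pigment cell genes 6 were above the limit, with a median of -0.01 over the 14. None of the 6 reached 2-fold, against 13.2% of all genes and unnamed probes called in either direction.

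Genes of cells outside the reporter's lineages were measured as well. Of 28 genes of epidermis and periderm, 19 were above the limit on each of the arrays. Among the 19, 2 were 2-fold higher and 2 were 2-fold lower, against 7.53% and 5.66% of all genes and unnamed probes. The S100 family gene icn, abundant in skin, had 2738 at 24 hpf and 529 at 18 hpf (5.17-fold), while the other sorted cells had 589 at 28 hpf and 522 in the Flk line, and whole embryos had 44204 at 24 hpf and 3351 at 18 hpf. Keratin krt18b had 1035 at 24 hpf and 442 at 18 hpf, and 111, below the limit, at 28 hpf. Keratin krt5 had 4167 at 24 hpf and 11678 at 18 hpf, 2.80-fold lower, and krt8 had 1349 and 2759, 2.05-fold lower. Under 75th percentile scaling the log2 differences of krt5 and krt8 were -0.30 and -0.24, so that neither reached 2-fold, and 2 other probes of krt8 averaged 0.00. The summed signal of the 28 genes after quantile normalization was 34712 at 24 hpf and 46520 at 18 hpf in Fli1 cells, against 175723 and 157358 in whole embryos of these stages. Bright keratins weigh most in such a sum, among them krt5 and cyt1 (7182 at 24 hpf and 13341 at 18 hpf). Under 75th percentile scaling cyt1 turned to 0.37. The median over the 19 was 0.02, against 0.29 in that scaling and 0.40 in the authors' scaled values, so the lower sum at 24 hpf depends on the scaling. The part of skin RNA in the differences was not tested.

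Genes of skeletal and cardiac muscle were measured too. Of 39 skeletal muscle genes 20 were above the limit, and the summed signal of the 39 was 24596 at 24 hpf and 24808 at 18 hpf. Of the 20, 3 were called higher and 1 lower, against 7.53% and 5.66% of all genes and unnamed probes. Among the higher calls, tnnc2.2 was above the limit at 24 hpf alone and bounded at only 1.02-fold. The calcium pump gene atp2a1 had 1815 at 24 hpf and 651 at 18 hpf (2.79-fold), though 2 other probes averaged -0.03, and whole embryos had 11216 at 24 hpf and 169 at 18 hpf. The fast myosin light chain gene mylpfa was above the limit at 24 hpf alone (at least 2.01-fold) with -0.51 by a second probe, and the light chain gene myl1 had 585 at 24 hpf and 1242 at 18 hpf, 2.12-fold lower, with log2 differences of -0.65 and -0.51 under the other scalings, short of 2-fold. Of 15 cardiac genes 6 were above the limit. Among them hand2 was higher and tbx20 lower, as given above.

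Yolk, liver and gut genes and nervous system genes had medians under the -0.14 of all genes among the members measured on both arrays. Of 44 yolk, liver and gut genes 18 were above the limit, 1 was 2-fold higher (the elastase gene ela2, at 24 hpf alone) and 2 were 2-fold lower, the gluconeogenic enzyme gene pck1 with 1340 at 24 hpf and 2690 at 18 hpf and hnf4a at 18 hpf alone. The median was -0.44 over the 10 measured on both arrays and -0.04 over the 44. Of 64 neural genes 19 were above the limit, 2 were higher and 1 was lower. Over all genes and unnamed probes 7.53% were higher and 5.66% lower. The proneural gene neurog1 had 1107 at 24 hpf and 470 at 18 hpf (2.35-fold), and the forebrain and midbrain gene otx2b had 1089 and 2823, 2.59-fold lower, with 4704 at 28 hpf. Neither otx2b nor pck1 kept 2-fold under 75th percentile scaling and in the authors' scaled values, which gave -0.61 and -0.60 for otx2b and -0.21 and -0.03 for pck1. The neural median was -0.41 over 13 measured on both and -0.09 over the 64.

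The hatching gland protease gene ctslb was saturated at 24 hpf (63929, against 45148 at 18 hpf), and at scan setting 45, where it was not, it had 16759 at 24 hpf and 18528 at 18 hpf. Of 13 genes of lens, hatching gland and notochord 5 were above the limit, and of 12 pronephros genes 6 were. None of these was called, where calls in either direction were 13.2% of all genes and unnamed probes. Of 44 hox genes 18 were above the limit, none was 2-fold higher, and 1 was 2-fold lower. That gene was hoxc4a, which was saturated at 18 hpf (65489) and below the limit on each of the other 5 arrays, with 96 to 158 there, so that the ratio to 24 hpf was at least 213-fold. Its second probe was below the limit on both Fli1 arrays. Such a signal on a single array was also the pattern of the empty spots.

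**Figure D5:**
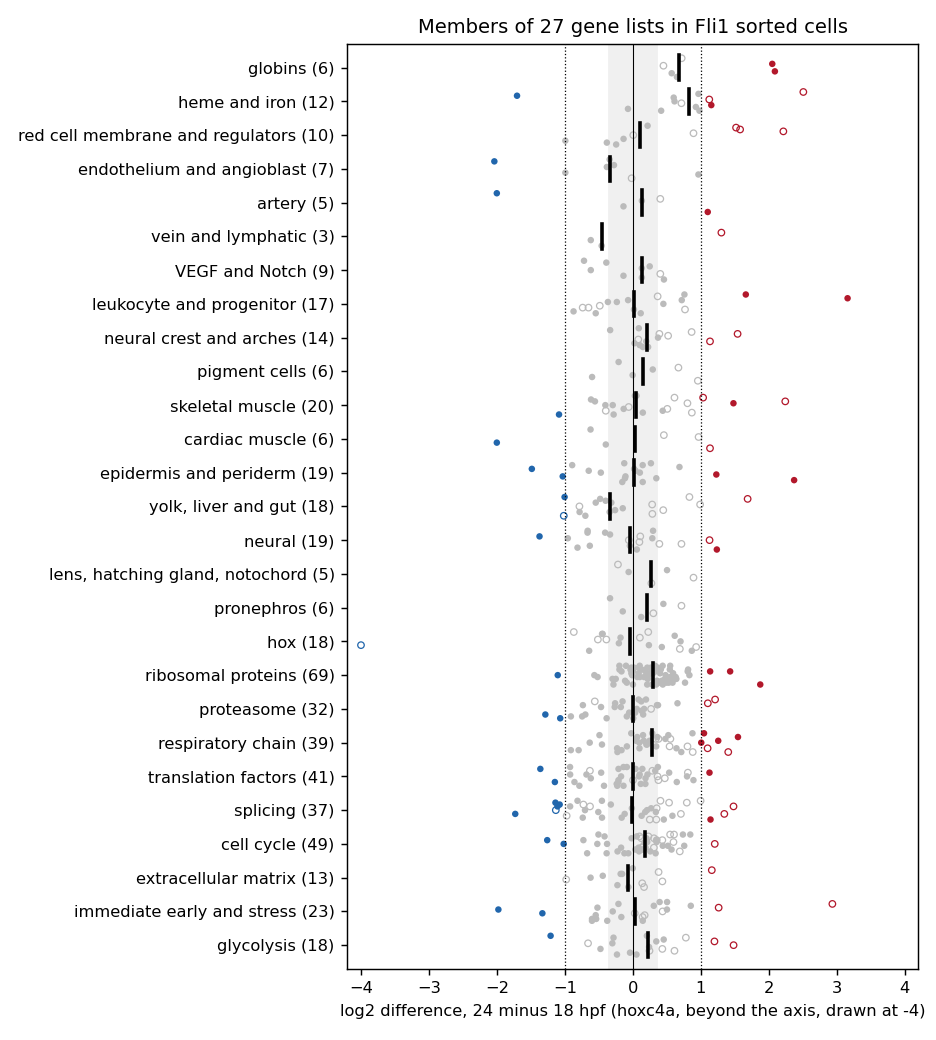
Log2 differences (24 minus 18 hpf, horizontal axis) of the members above the limit in 27 gene lists, with the number of members in parentheses, the list median as a black bar, dotted lines at 2-fold and a grey band of 1 SD of the Arabidopsis spots. Filled points were measured on both arrays, open points on 1, and the medians of the globins (0.68) and of the heme and iron genes (0.82) lie furthest right.

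Genes that every cell uses were examined next. Of 70 ribosomal protein genes 69 were above the limit, 3 were 2-fold higher and 1 was lower, against 7.53% and 5.66% of all genes and unnamed probes. The median was 0.29 over the 69. All genes and unnamed probes measured on both arrays had -0.14, and the brightest of their 5 groups had -0.12. The control SD of 0.35 is that of single spots and sets no error for a median. Under 75th percentile scaling the median was 1.52, and in the authors' scaled values it was 1.69. The brightest group had 0.83 and 0.999 there. Of the 69, 52 had a positive difference after quantile normalization. The large subunit gene rpl19 had 9202 at 24 hpf and 2512 at 18 hpf (3.66-fold), where 2 other probes averaged 0.59 on the log2 scale. The small subunit gene rps26 had 9954 at 24 hpf and 3694 at 18 hpf (2.69-fold). The gene rpl27a had 4699 at 24 hpf and 10112 at 18 hpf, but 4 other probes of it averaged 0.71, and its sign turned to 0.10 and 0.26 under the other scalings.

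Of 48 respiratory chain genes 39 were above the limit, 6 were 2-fold higher and none was lower, against 7.53% and 5.66% of all genes and unnamed probes. The median was 0.24 over the 48 and 0.16 over the 31 measured on both arrays, and 29 of the 39 had a positive difference. Members of the 39 outside those 31 were all above the limit at 24 hpf alone. Their entry through the 24 hpf array favours a positive difference, so the count of 29 is raised by the filter. The complex I gene ndufa12 had 2504 at 24 hpf and 858 at 18 hpf (2.92-fold), with 687 at 28 hpf. The ATP synthase ring gene atp5mc1 had 1521 at 24 hpf and 637 at 18 hpf (2.39-fold), and atp5l, another subunit of that enzyme, had 2266 and 1098 (2.06-fold). The complex I gene ndufb9 had 1388 at 24 hpf and 692 at 18 hpf, 2.01-fold, with 0.57 by a second probe. The complex I gene ndufa1 had 906 at 24 hpf and 1706 at 18 hpf, 1.88-fold lower.

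Genes of protein turnover and translation included calls in both directions. Over all genes and unnamed probes 7.53% were higher and 5.66% lower. The proteasome median over members above the limit was 0.01 after quantile normalization, 0.36 under 75th percentile scaling and 0.51 in the authors' scaled values. That of translation factors was 0.001, 0.37 and 0.58. Of 43 proteasome genes 32 were above the limit, 2 were higher, both at 24 hpf alone, and 2 were lower, the ubiquitin receptor gene psmd4b with 668 at 24 hpf and 1631 at 18 hpf and psmb4 of the core with 451 and 947. Neither kept 2-fold under the other scalings. Of 59 translation factor genes 41 were above the limit, and 1 was higher and 2 were lower. The elongation factor gene eef1b2 had 1854 at 24 hpf and 849 at 18 hpf (2.18-fold), with 0.87 for 2 other probes. The cap-binding genes eif4e1c (1043 at 24 hpf and 2679 at 18 hpf) and eif4e1b (393 and 871) were 2.57-fold and 2.22-fold lower, and a second probe of eif4e1c gave -1.46. Under the other scalings both fell short of 2-fold, with -0.58 and -0.45 for eif4e1c and -0.83 and -0.49 for eif4e1b.

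Splicing factors were called in both directions. Of 63 on the array 37 were above the limit. Among the 37, 3 were 2-fold higher and 5 were lower, against 7.53% and 5.66% of all genes and unnamed probes. The RNA-binding protein gene hnrnpaba had 1894 at 24 hpf and 6287 at 18 hpf, 3.32-fold lower, but -0.79 and -0.63 under the other scalings. The gene hnrnpa1b had 8462 at 24 hpf and 18268 at 18 hpf, and its sign turned to 0.22 and 0.37 there. The SR protein gene srsf6a had 853 at 24 hpf and 387 at 18 hpf, 2.21-fold higher, and srsf4 had 354 and 748, 2.11-fold lower, with -0.81 and -0.64 under the other scalings. Of 78 cell cycle genes 49 were above the limit, 1 was higher and 2 were lower. The mitotic kinase gene plk1 had 971 at 24 hpf and 2326 at 18 hpf, 2.40-fold lower, with -1.02 for 2 other probes, and the anaphase activator gene cdc20 had 352 and 714. Neither kept 2-fold under the other scalings, where plk1 gave -0.53 and -0.42 and cdc20 gave -0.77 and -0.69. The replication clamp gene pcna had 1834 at 24 hpf and 2398 at 18 hpf.

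Of 35 immediate early and stress genes 23 were above the limit. Among the 23, 2 were higher and 2 lower, against 7.53% and 5.66% of all genes and unnamed probes. The AP-1 subunit gene fosab had 1436 at 24 hpf and 5662 at 18 hpf, 3.94-fold lower, with -0.81 by a second probe. It had 458 at 28 hpf and 7729 in Flk cells, and it was below the limit in whole embryos of both stages. Other early response genes were within 2-fold, with 480 at 24 hpf and 540 at 18 hpf for jun, 588 and 682 for junba, 687 and 1042 for atf3 and 499 and 380 for egr1. The inducible heat shock gene hsp70.3 had 1739 at 24 hpf, at least 4.64-fold above 18 hpf, and 2 other probes averaged 1.32. It was below the limit on each of the other 5 arrays. The endoplasmic reticulum chaperone gene hspa5 had 3257 at 24 hpf and 8199 at 18 hpf (2.52-fold lower), while 7 other probes averaged -0.19 and the other scalings gave -0.22 and -0.05. Dissociation and sorting precede the RNA of all sorted arrays, and their part in these values was not tested.

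Of 23 glycolysis genes 18 were above the limit, 2 were higher, both at 24 hpf alone, and 1 was lower. Over all genes and unnamed probes 7.53% were higher and 5.66% lower. The aldolase gene aldocb had 3339 at 24 hpf and 7729 at 18 hpf, 2.31-fold lower, with 0.03 as the mean over its 7 probes and 0.08 in the authors' scaled values. Of 32 extracellular matrix genes 13 were above the limit, with 1 higher at 24 hpf alone and none lower. The matrix protein gene sparc had 1180 at 24 hpf and 1236 at 18 hpf, and hyaluronan synthase has2 had 1471 and 2001.

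Further genes stood out by size alone. Among the 12 named genes with the largest upward difference on both arrays, all 12 were 2-fold higher under the 3 scalings. The scalings other than quantile normalization move brighter genes upward, so this count is a weak check. After lyz and icn, the minor spliceosome gene snrnp25 had 4077 at 24 hpf and 949 at 18 hpf (4.30-fold), with 7729 at 28 hpf, 406 in Flk cells, and 1093 and 347 in whole embryos of 24 and 18 hpf. Like hbae1.1, it was highest at 28 hpf and lowest in whole embryos of 18 hpf. The checkpoint clamp gene rad1 had 1943 at 24 hpf and 598 at 18 hpf (3.25-fold), with 2722 at 28 hpf. The mitochondrial peroxiredoxin gene prdx3 had 1781 at 24 hpf and 468 at 18 hpf (3.80-fold), but 694 at 28 hpf. The growth regulator gene pa2g4b had 1499 at 24 hpf and 393 at 18 hpf (3.82-fold), where the 18 hpf array was the lowest of the 6. The kinase gene clk4a, which acts on splicing factors, had 1595 at 24 hpf and 431 at 18 hpf (3.70-fold), again with 18 hpf lowest. The creatine kinase gene ckbb had 1446 at 24 hpf and 421 at 18 hpf, and 4 of its other probes averaged 0.04.

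In the other direction, the autophagy gene wdr45b had 1204 at 24 hpf and 5832 at 18 hpf, 4.84-fold lower. It had 8139 at 28 hpf, and whole embryos had 1185 at 24 hpf and 4857 at 18 hpf, 4.099-fold lower. The mRNA-binding gene serbp1a had 4699 at 24 hpf and 18018 at 18 hpf, 3.83-fold lower, and 10923 or more on the other arrays. The GABA receptor gene gabrb2a had 421 at 24 hpf and 1511 at 18 hpf (3.59-fold lower), where 18 hpf was the highest of the 6. The chaperonin gene cct6a had 601 at 24 hpf and 2587 at 18 hpf, with -0.28 for 4 other probes. The magnesium transporter gene nipa2 had 420 at 24 hpf and 1393 at 18 hpf, but a second probe gave -0.02 on the log2 scale. The ciliary trafficking gene rp2 had 321 at 24 hpf and 1239 at 18 hpf, and calm3b, a calmodulin, had 411 and 1270. Of these 12 lowest genes, fosab, tbx20, yes1 and slc11a2 included, 9 were 2-fold lower by their main probes under all 3 scalings. The exceptions were serbp1a, hnrnpaba and slc11a2.

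Genes measured at 1 stage alone need the other arrays beside them. The G protein gene gnb3b (2034 at 24 hpf, at least 5.43-fold), the cilium gene drc2 (1061, at least 2.83-fold) and klhl24b (1014, at least 2.705-fold) had 131 to 262 on all other arrays, where gnb3b was above the limit in Flk cells alone, and another probe of gnb3b gave -0.65. The nucleoporin gene nup155 (1021), the sorting nexin gene snx5 (1061) and the chaperonin gene cct7 (1068), by contrast, were above the limit on the remaining 4 arrays, and the main probe was below it at 18 hpf. Other probes did not show that difference for cct7, where 2 averaged -0.22, or for nup155, where 2 averaged 0.14. In the reverse direction, cxxc1a, which binds CpG-rich DNA, had 8462 at 18 hpf (at least 27.5-fold lower at 24 hpf), and it was between 208 and 449 on all other arrays, above the limit there in whole embryos of 24 hpf alone. The proneural gene atoh1a (939), the sodium channel gene scn8aa (894), plppr1 (972) and the polycomb gene pcgf1 (1083) were likewise high on the array of 18 hpf and 96 to 274 elsewhere. For wbp1 (174 at 24 hpf and 3109 at 18 hpf, at least 10.1-fold lower) and grcc10 (114 and 901) the array of 24 hpf was the low one, since wbp1 had 1361 to 6422 and grcc10 402 to 1837 on the remaining 4. Counted over all calls, 31 of the 299 higher ones were 2-fold above all other 5 arrays at 24 hpf and 24 were 2-fold below all other 5 at 18 hpf. Of the 225 lower ones, 46 were 2-fold above all other 5 arrays at 18 hpf and 23 were 2-fold below all other 5 at 24 hpf.

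Whole embryos of 24 and 18 hpf were measured on arrays of their own, so their difference shares no array with that of the Fli1 cells. There 331 of 4886 genes and unnamed probes were 2-fold higher at 24 hpf (6.77%) and 240 were lower (4.91%). Across 2218 genes above the limit on all 4 arrays, which are not independent replicates, the difference in Fli1 cells and that in whole embryos had a Pearson correlation of 0.045 and a Spearman correlation of -0.054. Of 195 genes higher in Fli1 cells and above the limit on both whole-embryo arrays, 18 were 2-fold higher there and 6 were lower. Of 142 lower in Fli1 cells, 4 were higher in whole embryos and 9 were lower.

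Embryonic globins were 2-fold higher at 24 hpf in both comparisons. In whole embryos hbae1.1 had 6903 at 24 hpf and 387 at 18 hpf, 17.8-fold, and hbae3 had 4604 and 455, 10.1-fold, beside 4.14-fold and 4.25-fold in Fli1 cells. The median of the 6 globins above the limit was 0.68 in Fli1 cells and 1.90 in whole embryos, and whether these differ was not tested. Over members above the limit on at least 1 Fli1 array, skeletal muscle genes had a median of 0.04 in Fli1 cells and 0.79 in whole embryos. Respiratory chain genes had 0.28 and -0.10 over such members. Over members measured on both Fli1 arrays, the medians in Fli1 cells were -0.21 for skeletal muscle and 0.16 for the respiratory chain. Members were chosen on the Fli1 arrays and not on those of whole embryos, so the 2 sides are not matched. Ribosomal protein genes had 0.29 in Fli1 cells and -0.40 in whole embryos.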

How the data were processed

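The 6 conditions were hybridized to 1 single-colour Cy3 array each, and the 2 Fli1 arrays of 24 and 18 hpf form the comparison. Spot and local background intensities at scan settings 45, 55 and 65 were deposited, with a joined intensity that the authors had background-subtracted and, from the values, divided by 1 number per array in the scaled table. The deposited flag score has no stated meaning, and 68 flagged probes were left out. The deposited ratio of spot over background, per the file headers, was not used. The labels and headers used here name no image software.

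Setting 55 was corrected by normexp (offset 50) and quantile normalized over 6 arrays with limma 3.58.1 in R 4.3.3, and tested on simulated data. The limit of a measured spot was the 95th percentile of the background-subtracted Arabidopsis spots of its array. A fold against a spot below its limit, or of a saturated spot, is a lower bound, computed against the higher of that spot's own signal and the lowest signal above the limit. Of 14067 probes 8450 were named, to 5066 symbols, through accessions and descriptions matched to RefSeq names.

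Named genes were the 12 highest and 12 lowest measured on both arrays with 1 sign under 3 scalings, the 8 largest bounds on each side, the 4 largest differences in each of 27 lists, and a fixed set. The genes alad, alas1, arpc1b, cahz, drl, egr1, ela2, fech, fth1a, hand2, hbba1, hbba2, her9, hmbsa, hnf4a, jun, junba, klf17, mfap4.1, mpx, mylpfa, ndufa1, pcna, prdx2, sox17, sparc, srsf4, tfap2c, tmod4 and tnnc2.2 fall outside that rule and were chosen after their values were seen. The members and lists were chosen with earlier results of these data known. Alternatives covered scaling, scan setting, background, limit, filter, probe choice and fold. With 1 array a condition there is no test, and the number of arrays limits the precision. The planned description of promoters was not run, as no promoter sequence was used here.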

Additional observations from a re-analysis of the deposited data

How the results depend on the processing

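No call changed direction in the counts. Against 299 higher and 225 lower, the counts were 450 and 102 under 75th percentile scaling (81.5% higher, against 57.1%), 577 and 107 in the authors' scaled values (84.4%), 158 and 145 at scan setting 45, 95 and 119 for genes above the limit on both arrays (44.4%), and 41 and 37 at 4-fold. Leaving out the dimmest 20% of genes, an alternative chosen after seeing the data, left 185 higher and 167 lower. Of list medians, 75th percentile scaling gave 1.75 for globins, 1.18 for heme and iron, 0.51 for red cell genes, 1.515 for ribosomal proteins, 0.75 for the respiratory chain and 0.37 for translation factors. The authors' scaled values, whose members above the limit were chosen anew on that scale, gave 3.27, 1.28, 0.53, 1.69, 0.83 and 0.58 for these, 0.014 for endothelium, 0.42 for skeletal muscle, 0.40 for epidermis and 0.51 for the proteasome. Globins stood at 2.002 at setting 45, 1.84 with joined settings and 1.35 on both arrays. On both arrays red cell genes stood at -0.25, cardiac genes at -0.62 and neural genes at -0.41. The 99th percentile limit gave 0.34 for vein, -0.62 for cardiac and 0.425 for hox genes, and cardiac genes stood at -0.40 without the dimmest 20%. Of all 225 lower calls, 221 kept their sign under 75th percentile scaling and 215 in the authors' scaled values. Among the called ones of the 141 genes picked by the naming rule, the sign turned for aldocb, hnrnpa1b and rpl27a. For aldocb the log2 difference was 0.078 in the authors' scaled values and 0.031 over all probes. That of hnrnpa1b was 0.22 under 75th percentile scaling and 0.37 in the authors' scaled values. That of rpl27a was 0.10 and 0.26 there, and 0.34 over all probes. Over all 141 named genes, called or not, the sign turned for 15 under 75th percentile scaling, 22 in the authors' scaled values and 7 over all probes. The cause was not tested. No paired analysis was possible because each condition has 1 array and no test was made. The description of promoters was not run. Of 141 named genes, 117 moved by more than the spread of the controls under at least 1 alternative. Of 20 endothelial genes 7 were above the limit, beside 3972 of all 10633 genes and unnamed probes. Why the other endothelial genes were below it was not tested.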

Other observations

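The gene lists in this paragraph and the next were chosen after values were seen, so their counts are descriptions. Factors that assemble ribosomes had a negative median difference in Fli1 cells. Of 66 on the array 42 were above the limit, 9 were 2-fold lower and 1 was higher, against 5.66% and 7.53% of all genes and unnamed probes. Of the 9, nop14 and wdr18, both measured at 18 hpf alone, kept 2-fold under both other scalings, and the other 7 did not. The pseudouridylation complex gene gar1 had 1852 at 24 hpf and 4999 at 18 hpf, and the RNA polymerase I gene polr1b had 966 at 24 hpf and 1955 at 18 hpf. The large subunit assembly genes pes (503 at 24 hpf and 1049 at 18 hpf), rpf1 (809 and 1697) and rpf2 (2281 and 4676) were lower by between 2.05-fold and 2.096-fold, with 0.07 on the log2 scale, higher, for rpf2 in the authors' scaled values. Over the 42 the median was -0.55, with -0.18 under 75th percentile scaling and -0.07 in the authors' scaled values, and -0.39 in whole embryos. The proteins of the ribosome itself had a positive median under the same scalings.

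Of 24 genes of peroxide and thiol defence 17 were above the limit, 4 were 2-fold higher at 24 hpf and none was lower by its main probe, against 7.53% and 5.66% of all genes and unnamed probes. A second probe of gclc, which encodes an enzyme of glutathione synthesis, gave -1.96 on the log2 scale. They were blvrb, prdx2, prdx3 and the thioredoxin gene txnb, which had 4491 at 24 hpf and 1984 at 18 hpf. The median was 0.34 over the 17 and 0.05 over the 13 measured on both arrays. Of 8 subunits of the cytosolic chaperonin, which act as 1 complex, cct7 was higher and cct6a and cct8 were lower by their main probes. Other probes averaged -0.22 for cct7 (2 probes), -0.28 for cct6a (4 probes) and 0.30 for cct8 (1 probe). The median of the main probes was -0.49, or 0.18 in the authors' scaled values.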
